A study of Mus musculus with 2 samples.

Results

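The 10 airway secretory and club cell genes Scgb1a1, Scgb3a1, Scgb3a2, Cbr2, Gsto1, Hp, Muc5b, Bpifa1, Bpifb1 and Spdef, were examined for accessible chromatin in mouse lung. They were listed by symbol, with earlier results of these data known, and all 10 were found among the 21938 protein-coding genes of the GENCODE M21 annotation on the autosomes, X and Y. DNase-seq cuts open chromatin with the nuclease DNase I, so sites where many cuts fall are accessible DNA (peaks). Footprints are short stretches inside them with fewer cuts. The lungs came from male B6CASTF1/J mice, a hybrid strain, aged 14 days, with no treatment or genotype contrast. The 2 libraries form 1 group. The label of replicate 2 names a pool of 3 males, and that of replicate 1 names no pool. As the donor entry is the same for both, the labels do not settle whether the libraries come from different animals, and their spread may be technical. Whole lung holds many cell types, so fewer cells with an open site and less opening per cell cannot be told apart. The read depth is unknown, because the peak and footprint files give no read counts. No test was made, since 1 group has no contrast, and every value is given for replicate 1 first and replicate 2 second.

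Club cells are secretory cells of the airway lining. Their main products are secretoglobins, small secreted proteins, and they also detoxify inhaled compounds with reductases and transferases. Goblet cells, a related secretory type, make the gel-forming mucins under the transcription factor Spdef, and proteins of the BPI fold family such as Bpifa1 and Bpifb1 are secreted into the airway fluid as part of innate defence.

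Accessible sites other than promoter peaks lay in the windows (gene and 50 kb on each side) of 9 of the 10 genes. That is near the share of all protein-coding genes, 86.6% and 85.2%. The genes split evenly at their annotated 5′ ends. Gsto1, Cbr2, Hp, Muc5b and Spdef had a promoter peak, defined as a peak within 1 kb of the 5′ end of any of their transcripts, in both libraries. Scgb1a1, Scgb3a1, Scgb3a2, Bpifa1 and Bpifb1 had none in either. Of all protein-coding genes, 63.6% had one in both libraries. The Spdef peak lay inside the gene, 11753 and 11789 bp from the nearest protein-coding start. The highest promoter peak of each of the 5 genes ranked from 89.4 and 85.0 at Gsto1 down to 19.5 at Muc5b in replicate 1 and 13.6 at both Muc5b and Spdef in replicate 2, as percentiles of the peak score within each library (0 is the lowest score, 100 the highest). The score is the authors' deposited value for a peak, on a scale that differs between libraries, so ranks are used here.

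The sequences below show the most contrasting sites. Each is read 5′ to 3′ on the strand of the gene it is listed under, from the GRCm38 (mm10) reference. Bases in capitals lie inside a footprint in both libraries. Positions within a sequence are counted from 1 at its 5′ end. The reference is not the sequence of the hybrid mice, whose alleles were not analysed here. First come the RefSeq promoter of Gsto1, which was open, and that of Scgb3a1, which had no peak, both cut back to the bases upstream of the first exon. They were taken from a RefSeq table (build GRCm38.p6) that held 6 of the 10 genes (Bpifa1, Bpifb1, Cbr2, Gsto1, Scgb3a1 and Spdef). Scgb1a1, Scgb3a2, Hp and Muc5b had no entry.
Gsto1 promoter (chr19:47854723-47854969, plus strand): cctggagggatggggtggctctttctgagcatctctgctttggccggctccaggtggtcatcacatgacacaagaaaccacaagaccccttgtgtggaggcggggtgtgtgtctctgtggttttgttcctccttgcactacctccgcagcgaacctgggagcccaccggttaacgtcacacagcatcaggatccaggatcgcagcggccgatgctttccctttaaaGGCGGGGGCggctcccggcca
Scgb3a1 promoter (chr11:49663345-49663594, plus strand): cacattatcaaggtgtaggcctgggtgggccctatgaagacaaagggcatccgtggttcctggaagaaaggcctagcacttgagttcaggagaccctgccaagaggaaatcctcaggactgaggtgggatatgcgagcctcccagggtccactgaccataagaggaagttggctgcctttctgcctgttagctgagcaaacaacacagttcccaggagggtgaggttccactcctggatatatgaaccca
In the open Gsto1 promoter the capitals mark 1 stretch that lay in a footprint in both libraries, GGCGGGGGC. The Scgb3a1 promoter has no capitals, since no peak and no listed base lay there. Its letters still hold 4 of the consensus sequences searched on both strands: the STAT consensus TTCCNGGAA at bases 57 to 65, CACTTGA of NKX2-1 at 77 to 83, the NFI letters TTGGCA at 97 to 102 and the FOXA form TGTTTGC at 196 to 202. In the 250 bases before the start of all 32851 RefSeq promoters, those letters occurred in 0.913%, 2.68%, 12.3% and 4.30%. The Gsto1 promoter holds ATCCTG of SPDEF and other ETS factors at bases 187 to 192 and 194 to 199, on the opposite strand. Those letters occurred in 13.6% of the RefSeq promoters. All of these are matches of letters only.

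Next come 6 accessible sites away from every 5′ end of any gene. They were chosen from the 5 highest such sites of their genes because they held bases in footprints of both libraries.
Scgb1a1, past its 3′ end (chr19:9082541-9082740, minus strand): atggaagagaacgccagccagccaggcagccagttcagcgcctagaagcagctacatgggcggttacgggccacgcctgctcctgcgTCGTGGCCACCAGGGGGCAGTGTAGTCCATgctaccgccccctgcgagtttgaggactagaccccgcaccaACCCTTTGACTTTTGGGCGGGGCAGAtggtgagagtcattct
Scgb3a1, upstream (chr11:49652881-49653020, plus strand): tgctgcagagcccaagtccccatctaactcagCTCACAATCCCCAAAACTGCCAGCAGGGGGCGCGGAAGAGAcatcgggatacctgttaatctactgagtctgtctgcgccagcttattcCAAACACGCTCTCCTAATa
Cbr2, upstream (chr11:120733661-120733802, minus strand): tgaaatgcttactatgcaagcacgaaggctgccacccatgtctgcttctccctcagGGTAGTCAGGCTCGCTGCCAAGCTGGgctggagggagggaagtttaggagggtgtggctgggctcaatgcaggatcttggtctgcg
Cbr2, far upstream (chr11:120776181-120776340, minus strand): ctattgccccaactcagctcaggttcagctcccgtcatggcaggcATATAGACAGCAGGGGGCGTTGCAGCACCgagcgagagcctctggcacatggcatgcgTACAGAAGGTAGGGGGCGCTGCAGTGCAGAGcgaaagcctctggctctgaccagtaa
Hp, upstream (chr8:109587001-109587160, minus strand): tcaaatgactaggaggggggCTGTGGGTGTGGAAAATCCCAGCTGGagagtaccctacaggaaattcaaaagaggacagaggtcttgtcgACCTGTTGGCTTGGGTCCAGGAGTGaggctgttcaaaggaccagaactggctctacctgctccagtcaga
Bpifb1, intron (chr2:154215329-154215480, plus strand): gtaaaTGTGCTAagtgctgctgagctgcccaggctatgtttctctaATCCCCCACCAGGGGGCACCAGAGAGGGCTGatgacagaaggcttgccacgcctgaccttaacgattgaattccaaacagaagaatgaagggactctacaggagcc
The Scgb3a1 and the far upstream Cbr2 sites hold the CTCF core AGGGGGCGC, at bases 57 to 65 and 114 to 122, and in both the whole core is in capitals. CTCF is the factor known for binding insulators and chromatin loop anchors. The near Cbr2 site holds the NFI letters TTGGCA at bases 72 to 77, on the opposite strand, and its 6 bases are in capitals too. These letters are common. In the central 150 bp they occurred in 16.4% and 16.7% of all peaks away from 5′ ends. Of such peaks around the 10 genes, 17.0% and 9.76% held them.

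Gsto1 encodes a glutathione transferase of the omega class, a detoxifying enzyme. It had the highest-ranking promoter of the 10 genes: its peak over the first exon scored 5.98 and 4.46 on the scales of the 2 libraries, at percentiles 89.4 and 85.0 (mean 87.2 ± 3.09, SD, n = 2), at chr19:47854921-47855080 and chr19:47854901-47855080. It held 4 footprints in each library, among them the one in the promoter sequence above. A second, weaker promoter peak at percentile 16.5 was present in replicate 1 only. The lowest false discovery rate that the authors list at a base near its 5′ ends was 3.2e-60 and 2.3e-18. Over all genes with a promoter peak the medians were 89.9 and 89.7, with lower quartiles of 74.7 and 74.8.

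Cbr2 encodes a carbonyl reductase of the lung that is used as a club cell marker. Near its protein-coding 5′ ends lay a narrow peak of 109 and 55 bp at percentiles 55.8 and 40.7, with 1 and 0 footprints. It was 0 and 16 bp from the inner of these ends and 72 and 100 bp from the outermost. The stronger peak lay near the 3′ end of the gene, at chr11:120729541-120729720 and chr11:120729541-120729740, at percentiles 76.7 and 73.1 with 4 footprints in each library. It counted as a promoter peak because it was 385 and 365 bp from the 5′ end of a transcript annotated as a retained intron. Another site, the near upstream sequence printed above, lay 1527 and 1547 bp before the first exon at percentiles 76.5 and 62.7. Both of the stronger sites therefore ranked above the narrow peak near the start of the coding transcripts in each library.

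Hp encodes haptoglobin, the haemoglobin-binding plasma protein, which is made in liver and also in lung epithelium and granulocytes. A broad peak of 418 and 274 bp covered its coding 5′ end at percentiles 46.2 and 38.7 (mean 42.4 ± 5.35, SD, n = 2), with 4 footprints in each library. Among promoter peaks only the mean was 28.1. As a check on which cells could contribute, promoters of other cell types were counted. Of the 6 liver markers (Alb, Apoa1, Ttr, Serpina1a, Ahsg and Fgb), none had a promoter peak in either library. Of the 7 neutrophil and myeloid markers, 3 and 2 had one: Camp (72.1 and 47.7) and S100a8 (62.2 and 37.1) in both libraries and Mpo (12.5) in replicate 1, while Elane, Ly6g, Csf3r and S100a9 had none. All of these markers were poor in CpG (a ratio under 0.5, defined below), and of all such genes 31.1% had a promoter peak in both libraries. The part of such cells in the Hp peak was not tested.

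Muc5b encodes the gel-forming mucin of resting airways. Its promoter had a peak in both libraries, but one of the lowest ranks, with scores of 0.636 and 0.627 at percentiles 19.5 and 13.6 (mean 16.6 ± 4.18, SD, n = 2). In the larger peak list the mean was 38.9, and among promoter peaks only it was 10.1. The peak at chr7:141838921-141839040 in replicate 1 ended 30 bp before the only annotated 5′ end, and that of replicate 2, at chr7:141838942-141839120, covered it. It held 1 and 2 footprints. The 2 libraries placed the listed bases of this region almost alike, with 258 and 253 bases that passed a false discovery rate of 0.05, between 141838891 and 141839148 in replicate 1 and between 141838896 and 141839148 in replicate 2.

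Spdef encodes the ETS factor of goblet cell differentiation. Its promoter call rests on a peak inside the gene, at chr17:27716970-27717136 in replicate 1 and chr17:27717015-27717100 in replicate 2. It lay 583 and 619 bp from the 5′ end of a transcript annotated as a retained intron, at percentiles 30.1 and 13.6 (mean 21.9 ± 11.7, SD, n = 2). In the larger peak list the mean was 43.6, and among promoter peaks only it was 13.7. The 4 protein-coding transcripts of Spdef start at the other end of the gene, and the nearest peak to any of those starts was 11753 and 11789 bp away. With only the outermost 5′ end of each gene used, 4 of the 10 genes had a promoter peak in both libraries, against 58.7% of all genes.

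**Figure D1:**
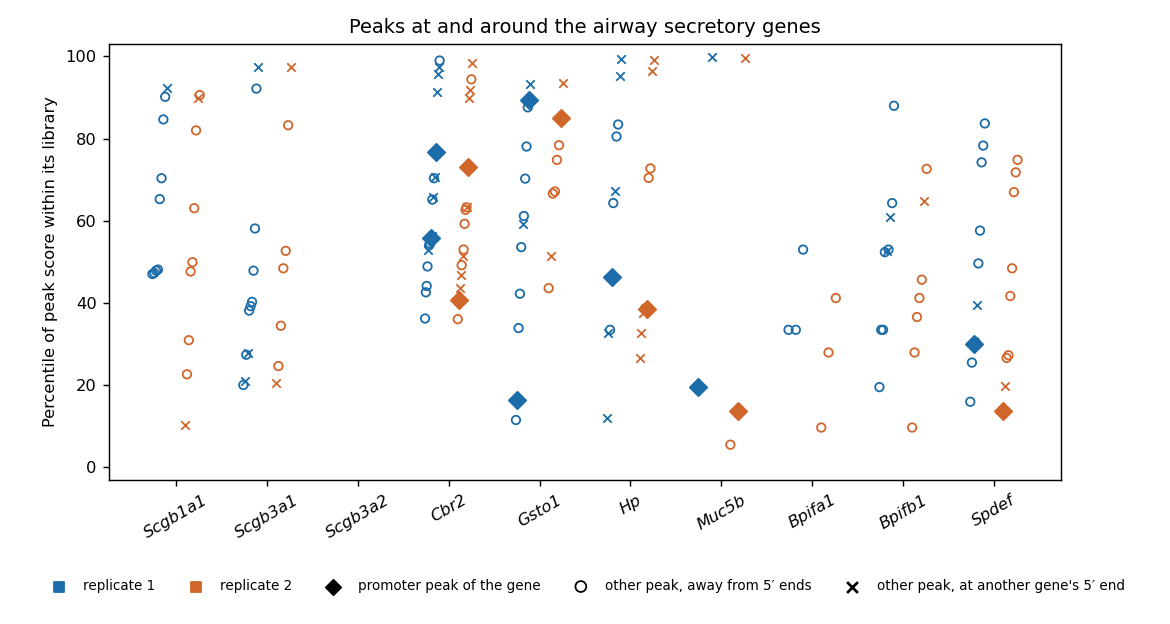
Percentile of the peak score within its library (vertical axis) for each peak at the 10 genes (horizontal axis), replicate 1 in blue and replicate 2 in orange. Diamonds are promoter peaks, open circles other peaks away from every 5′ end and crosses other peaks at the 5′ end of another gene. Scgb3a2 has no peak, and only Gsto1 and the inner Cbr2 peak have promoter peaks above percentile 70 in both libraries.

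As a background, a promoter peak within 1 kb of any transcript 5′ end was present for 66.6% of all protein-coding genes in replicate 1, 64.1% in replicate 2 and 63.6% in both. The airway secretory genes had one in 5 of 10 cases in each library and in both. Their promoters were poor in CpG: the observed over expected CpG ratio in the 500 bp on each side of the outermost 5′ end was between 0.140 (Muc5b) and 0.265 (Bpifb1) in 9 genes and 0.632 in Gsto1. The median was 0.209, against 0.552 over all genes. Across all genes the share of promoters with a peak in both libraries went from 14.7% at a ratio under 0.2 to 96.5% at 0.9 and above. Of genes under 0.5, 31.1% had a promoter peak in both libraries, and of the 9 such genes here 4 had one (Cbr2, Hp, Muc5b and Spdef). The ratio was taken at the outermost 5′ end, and Spdef had no peak within 1 kb of that end in either library.

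Low CpG promoters also had lower peaks. Among all genes under 0.5 with a promoter peak, the median percentile was 72.5 and 73.1, with quartiles of 45.4 and 88.7 in replicate 1 and of 46.1 and 88.4 in replicate 2. The highest Cbr2 peak lay above the median in replicate 1 and at it in replicate 2. Hp lay just above the lower quartile in replicate 1 and below it in replicate 2, and Muc5b and Spdef lay below the lower quartile in both.

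**Figure D2:**
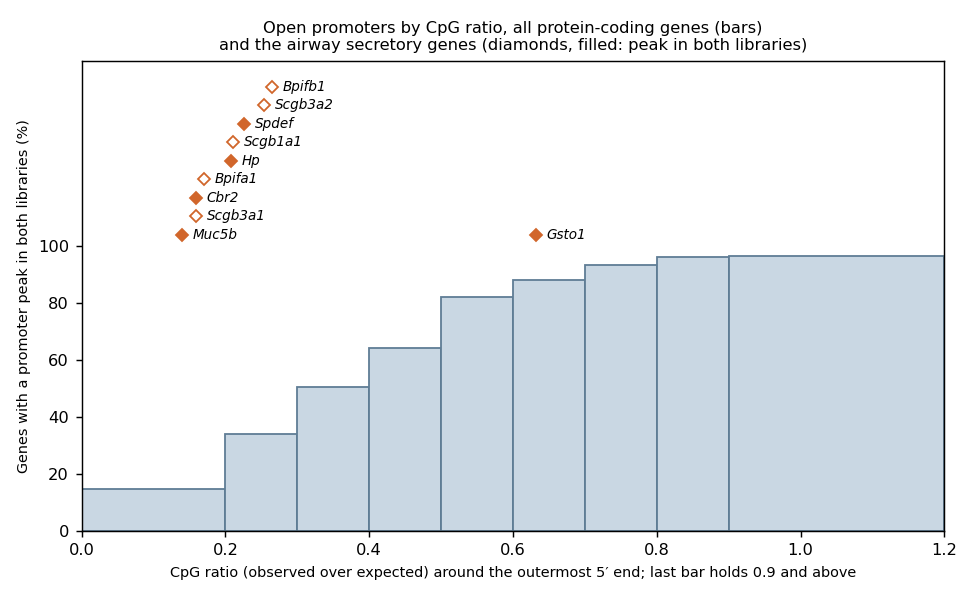
Share of all protein-coding genes with a promoter peak in both libraries (bars, percent) by the CpG ratio around the outermost 5′ end. The bars rise from 14.7% to 96.5%. The 10 airway secretory genes are drawn above the bars at their own ratio only, with no vertical scale, filled where a promoter peak was present in both libraries. Spdef is filled for a peak at an inner 5′ end, away from the place of its ratio. Apart from Gsto1 at 0.632 they sit at 0.265 or below.

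The secretoglobin genes Scgb1a1, Scgb3a1 and Scgb3a2 had no promoter peak, although Scgb1a1, also known as club cell secretory protein, is the most widely used marker of club cells. Scgb3a1 and Scgb3a2 encode related secreted proteins, the first found mostly in larger airways. Nor had any of the 3 a promoter peak in the larger peak list that the authors deposited for each library, with 145663 and 117300 peaks in place of 94786 and 77403. The same held for Bpifa1, an abundant secreted protein of nose and upper airway, and for Bpifb1, which is made by goblet cells and glands. The authors also list single bases whose cleavage passed a false discovery rate of 0.05. Within 1 kb of the 5′ ends of Scgb1a1, Scgb3a1, Bpifa1 and Bpifb1 no such base was listed in either library.

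Scgb3a2 was the exception, in 1 library. In replicate 2, 26 bases at chr18:43764303-43764328 were listed, past the 5′ end annotated at 43764289 and over that at 43764327, with a lowest false discovery rate of 0.038. Replicate 1 had none there. Among all 7199 genes with no promoter peak in either library, 15.4% had at least 1 such base in 1 or both libraries, so 1 of 5 is near that share. Beyond its 5′ ends Scgb3a2 also stood in the emptiest window, with the nearest peak 72154 and 72176 bp away and no peak in the gene or the 50 kb on each side.

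Other peaks were counted within each gene body and 50 kb on each side. Of all protein-coding genes, 86.6% in replicate 1 and 85.2% in replicate 2 had at least 1, and 9 of the 10 airway secretory genes did in each library. The numbers were 17 and 14 for Cbr2, 11 and 7 for Scgb3a1, 10 and 7 for Gsto1, 9 and 9 for Scgb1a1, 9 and 8 for Hp and for Spdef, 9 and 7 for Bpifb1, 3 and 3 for Bpifa1, 1 and 2 for Muc5b and 0 and 0 for Scgb3a2. The median was 9 and 7, against 7 and 6 over all genes and likewise 7 and 6 over the 13778 genes of the same range of length. Windows of Bpifa1 and Bpifb1 overlap and share 3 peaks, which the totals count once.

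In all there were 75 and 62 other peaks, and 56 of the 75 (74.7%) overlapped a replicate 2 peak, near the 73.6% of all replicate 1 peaks. Of the 75 and 62, 22 and 21 lay within 1 kb of the 5′ end of another gene. These neighbours included the highest-ranking peaks of the windows: the promoter of Tollip, an adaptor of innate immune signalling beyond Muc5b, at 99.9 and 99.7, that of the helicase gene Dhx38 next to Hp at 99.2 and 99.2, and that of Cnot6 beside Scgb3a1 at 97.5 and 97.5. Gsto2, the neighbouring omega transferase gene, had its promoter at 93.3 and 93.5, above that of Gsto1 in both libraries. Dcxr, which encodes another carbonyl reductase next to Cbr2, had its promoter at 91.2 and 91.8, likewise above every peak of Cbr2 itself.

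The other 53 and 41 peaks lay away from all 5′ ends, with 35 and 23 in introns, 15 and 15 between genes, 2 and 2 in coding exons and 1 and 1 in an untranslated region. Their median percentile was 53.0 and 49.9, and 38 of the 53 (71.7%) had a partner in replicate 2, near the 71.0% of all replicate 1 peaks away from 5′ ends. Only 3 and 2 of them reached percentile 90. Over all peaks away from 5′ ends the median was 42.9 and 41.7.

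**Figure D3:**
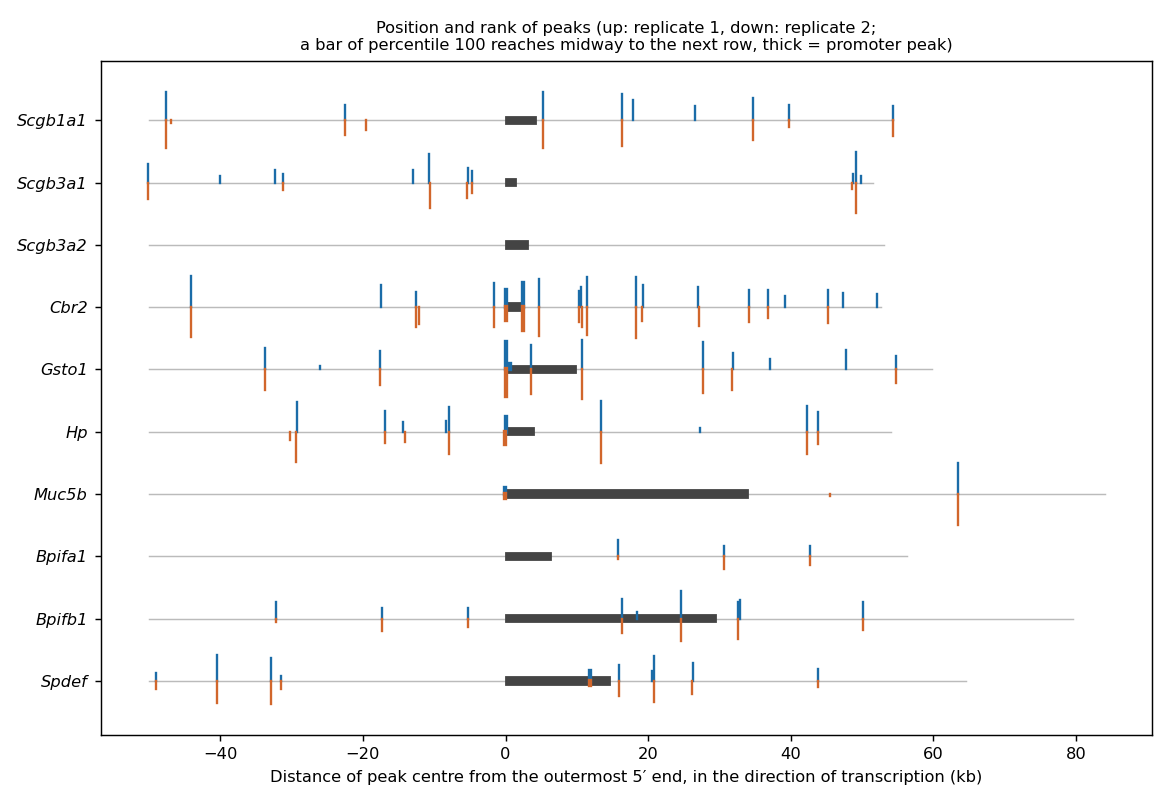
Peaks in the window of each gene (rows), by distance in kb from the outermost 5′ end in the direction of transcription. The dark box is the gene, bars up are replicate 1 and bars down replicate 2, and bar height is the percentile within the library. Thick bars are promoter peaks. The window of Scgb3a2 is empty, that of Bpifa1 holds 3 peaks in each library, all past the 3′ end of the gene, and Cbr2 has the densest window with 17 and 14 other peaks.

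Scgb1a1 had sites on both sides of the gene, none of them inside it. The first sequence of the group above, 5218 bp from the 5′ end, ranked at 90.1 and 90.6, with scores of 6.31 and 6.81 and 2 and 3 footprints. Its listed start and end were the same in both libraries, as were those of other sites, among them the far upstream Cbr2 site. The other high sites were 1 in an intron of Ahnak, which encodes a large scaffold protein, at chr19:9071601-9071780 with 84.6 and 82.0, and the Asrgl1 promoter, upstream of Scgb1a1, with 92.3 and 89.9. Upstream, the nearest site present in both libraries was 22383 and 22404 bp away and ranked at 47.9 and 47.7. A nearer one, at 19503 bp, was in replicate 2 only and ranked at 31.0.

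Scgb3a1 had 3 sites between it and the upstream gene Flt4 in both libraries. The strongest, 10590 and 10570 bp from the 5′ end, is the sequence with the CTCF core and ranked at 92.2 and 83.2. The nearer sites at chr11:49658141-49658440 and chr11:49658704-49659184 ranked lower, at 47.9 and 48.4 and at 38.1 and 34.5. The former holds the FOXA forms TGTTTAC and TGTTTGC outside shared footprints and the NFI letters inside one.

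Around Cbr2, the far upstream sequence ranked at 99.0 and 94.4 with 2 footprints in each library, the highest of all 53 and 41 sites away from 5′ ends. It lay 44067 bp from Cbr2, and the nearest 5′ end, 7845 bp away, was that of Rfng, so it is closer to other genes than to Cbr2. The remaining neighbours of Cbr2 with high ranks were Cenpx (95.7 and 98.3) and the site at Rac3 and Lrrc45 (97.5 and 89.9), both within 1 kb of a 5′ end.

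Gsto1 had 1 intronic site at chr19:47858421-47858560, with 78.1 and 78.4 and 3 footprints in each library. At Hp, the printed upstream site, 7829 bp before the gene, ranked at 80.5 and 72.7, above the promoter of Hp in both libraries. A site in an intron of Pmfbp1 at chr8:109536821-109537000 ranked at 83.4 and 70.4. Muc5b had no other peak within its gene body in either library.

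In the Bpif cluster the peak inside an intron of Bpifb1 ranked at 88.0 and 72.6, with 6 and 2 footprints, 14942 and 14922 bp past the nearest 5′ end of Bpifb1. A second intronic site at chr2:154207121-154207280 ranked at 64.3 and 45.7. The 3 sites shared with the Bpifa1 window were lower, and 1 of them, at chr2:154158561-154158700, differed widely in rank, at 53.0 and 9.70. Spdef had its highest sites in introns of D17Wsu92e, at chr17:27769301-27769500 with 83.7 and 71.8 and at chr17:27761801-27761960 with 74.2 and 74.8, and in an intron of Pacsin1, at chr17:27708041-27708240 with 78.3 and 67.0.

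In the 150 bp at the peak centres, the CTCF core AGGGGGCGC occurred in 5 of 53 (9.43%) and 3 of 41 (7.32%) of the sites away from 5′ ends, against 1.90% and 1.93% of all such peaks of each library. After the sequences were seen, the shorter letters AGGGGGC, which the core contains, were also counted. They occurred in 11 of 53 (20.8%) and 6 of 41 (14.6%), against 7.96% and 7.96% of all peaks away from 5′ ends. Besides the Scgb3a1 and far upstream Cbr2 sites they are in capitals in the printed Scgb1a1 site, at bases 99 to 105, and in the printed Bpifb1 intron, at bases 57 to 63. They lie in shared footprints at sites of Gsto1 and Spdef too, which are not printed. Other copies have no base in a shared footprint: bases 124 to 130 of the printed Scgb1a1 site, and unprinted sites of Scgb3a1, Cbr2 and Bpifa1. The Bpifa1 copy is part of a full CTCF core. The median percentile of the sites with these letters was 70.3 and 77.9, and of those without 48.5 and 48.4. The letters were chosen after the printed sites were seen, and those sites came from the highest of their genes. That choice favours both a higher share and a higher rank of sites with the letters here, so neither difference can be weighed. Over all peaks away from 5′ ends the medians were 65.6 and 57.6 with the letters and 41.0 and 40.2 without, so the same order held across the genome.

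Nkx2-1 and Foxa factors are known regulators of airway epithelium. CACTTGA of NKX2-1 occurred in 1 of 53 and 1 of 41 sites (1.89% and 2.44%, against 2.81% and 3.00% of all peaks away from 5′ ends). The FOXA form TGTTTGC occurred in 2 and 2 sites (3.77% and 4.88%, against 4.14% and 4.45%). Of the letters of SPDEF and other ETS factors, CCGGAA occurred in 0 and 0 sites, against 3.78% and 4.07%, and ATCCTG in 8 and 4 (15.1% and 9.76%, against 10.3% and 10.6%). The KLF letters CCCCACCC occurred in 6 and 5 sites (11.3% and 12.2%, against 3.94% and 3.97%). With at most 53 sites, 1 site more or less moves such a share by about as much as several of these differences. In the promoter peaks of the 10 genes (7 and 6), TGTTTGC occurred in 2 and 2 (28.6% and 33.3%, against 2.09% and 2.15% of all promoter peaks). CCCCACCC occurred there in 2 and 2 too (against 6.48% and 6.35%). CACTTGA and CCGGAA occurred in none (against 1.27% and 1.32%, and 12.8% and 14.0%). ATCCTG was in 0 and 1 (against 7.11% and 6.93%). So few peaks allow no weighing of these shares.

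The peaks of the 10 genes held 215 and 184 footprints, of a median width of 11.0 and 12.0 bp. Of these, 126 of replicate 1 (58.6%) and 129 of replicate 2 (70.1%) overlapped a footprint of the other library. The same share over all footprints is not given here, so these shares cannot be called high or low. Promoter peaks held 15 and 14, a mean of 2.14 and 2.33 per peak, against 2.66 and 2.78 over all promoter peaks. Other peaks held 200 and 170, a mean of 2.67 and 2.74, against 2.28 and 2.13 over all other peaks. The latter are all away from 5′ ends, and for the sites of the 10 genes away from 5′ ends the means were 2.34 and 2.68.

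Other genes of the airway secretory programme were counted next. Of a list of 50 such genes 49 were matched by symbol (Scgb3a3 was not). Of the 49, 24 (49.0%) had a promoter peak in both libraries, against 63.6% of all protein-coding genes. The numbers were 26 in replicate 1 and 27 in replicate 2. As with the 10 genes, most had a CpG ratio under 0.5, 40 of 49. Of those 40, 16 had a promoter peak in both libraries, against 31.1% of all genes under 0.5. Over all genes with a promoter peak, the median percentile was 89.9 and 89.7. The 7 at percentile 90 or above in both libraries were Por, the reductase that supplies electrons to cytochromes P450 (99.7 and 99.6), the Notch receptor Notch2 (97.1 and 95.7), the Notch target Hes1 (94.8 and 95.6), the glutathione transferase Gstm1 (95.5 and 95.5), the forkhead factor Foxa3 (94.8 and 95.8), Ltbp4 (96.1 and 91.5) and Selenbp1 (95.2 and 92.3). Within 1 kb of the outermost 5′ end, Ltbp4 had no peak in either library and Por had one in replicate 2 only.

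Lower but present in both libraries were the enzymes Cyp4b1 (88.5 and 89.1), Fmo2 (85.2 and 70.1), Aox3 (83.0 and 78.4), Aldh1a1 (64.3 and 60.0) and Ces1d (66.2 and 74.5), the regulators Elf3 (89.4 and 78.3), Creb3l1 (81.3 and 79.6) and Notch3 (63.8 and 59.8), and Krt8 (56.9 and 59.3) and Krt18 (56.2 and 33.9), the keratins of simple epithelia. So were Slc16a11, Chad, Fcgbp, Upk3a, Cldn10, Muc4 and Gabrp, of which Gabrp was lowest at 7.68 and 10.3. Among the 20 with none in either library were Muc5ac, Muc16, Muc20, Agr2, Clca1, Ern2, Itln1, Ltf, Pigr, Reg3g, Retnla, Lypd2, Bpifb9a, Iyd, Kcnj16, Nr2f2, Pon1, Cyp2a5 and Sult1d1. Muc5ac is the induced mucin of goblet cells, Agr2 helps to fold mucins and Pigr carries antibodies across the epithelium. The 5 with a peak in 1 library only fell outside the rule for naming genes and are named after their values were seen: Cyp2f2, the cytochrome P450 of club cells, in replicate 2 (17.8), Dcpp3 and Galnt12 in replicate 2 (0.656 and 2.99), and Lcn2 and Tff2 in replicate 1 (25.5 and 7.23).

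**Figure D4:**
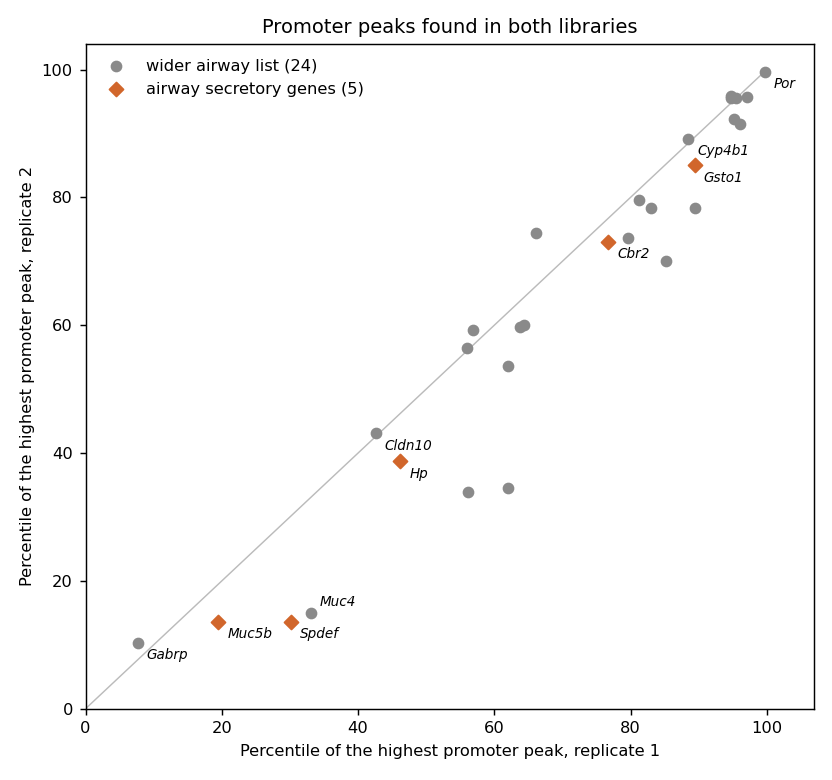
Percentile of the highest promoter peak in replicate 1 (horizontal) and replicate 2 (vertical) for the 24 genes of the wider list (grey circles) and the 5 airway secretory genes (orange diamonds) with a promoter peak in both libraries. The line marks equal ranks. Por is highest at 99.7 and 99.6, and Muc5b and Spdef lie in the low corner with Muc4 and Gabrp.

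The labelled tissue was checked in the same way. Promoters of lung epithelium markers had a peak in both libraries in 10 of 10 cases (Nkx2-1, Sftpc, Sftpb, Sftpa1, Abca3, Ager, Hopx, Foxa2, Cdh1 and Epcam), ciliated cell markers in 7 of 8, endothelial markers in 4 of 4 and fibroblast markers in 3 of 3. Cardiac muscle markers had one in 0 of 3. Over all protein-coding genes the share was 63.6%. The median CpG ratio of the ciliated markers was 0.650, against 0.552 over all genes. The 6 of 10 lung epithelium markers with a ratio under 0.5 all had such a peak, as did 3 of 3 endothelial and 3 of 3 fibroblast markers in that range. There, ciliated markers had it in 1 of 2 cases, cardiac muscle markers in 0 of 3 and the airway secretory genes in 4 of 9. Among those 4, Spdef counted by an inner 5′ end, and so did Pecam1 among the 3 endothelial markers. Nkx2-1, at a ratio of 0.668, had no peak within 1 kb of its outermost 5′ end in replicate 2. How much airway lining the dissected tissue held was not measured.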

How the data were processed

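DNase-seq peaks and footprints of 2 lung libraries, replicates of 1 group, were read as deposited. Per the submitters' processing notes the build is mm10. For the aligner and the peak caller, the tool, version and settings were not given in the sources used here. There are no read counts, so depth is unknown. In the deposited peak files each interval has the authors' signal value (the score) on a scale of each library's own. Of the 2 peak lists per library the smaller was used (94786 and 77403 peaks). The authors' footprint files hold 326313 and 252174 intervals, all with the same p-value threshold of 0.01 and no value of their own. The authors' cleavage files list runs of bases with a false discovery rate, a p-value adjusted by the authors, of 0.05 or below.

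Percentiles are mid-ranks of the score among all peaks of the library. Peaks were assigned by distance to the transcript 5′ ends of GENCODE M21 on GRCm38: a promoter peak lay within 1000 bp of any transcript 5′ end of the gene, and other peaks inside the gene or up to 50 kb beyond either end. Peaks and footprints were shared where they overlapped by at least 1 bp, and a footprint was counted where it lay wholly inside a peak. The CpG ratio was taken over 500 bp on each side of the outermost 5′ end. A set of 14 consensus sequences was searched on both strands in the central 150 bp of peaks and in RefSeq promoters, with no mismatch. The genes and lists were chosen with earlier results of these data known, and no test was made. All 10 genes are named, as are the genes of the wider list with a promoter peak in both libraries or in neither, and at most the 5 highest other peaks of each gene. A gene of the wider list is counted but not reported here by name. Alternatives were the promoter distance, the flank, the larger peak list, the overlap, the score and the library. Counting was checked on planted peaks. Python 3.11.15, numpy 2.4.6, pandas 2.3.3 and matplotlib 3.10.9 were used.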

Additional observations from a re-analysis of the deposited data

How the results depend on the processing

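With all other settings as reported, 5 of the 10 genes had a promoter peak in both libraries, and 4 or 5 with distances of 500 or 2500 bp, the outermost 5′ end or the larger peak list. With the higher-scoring 50% of peaks it was 2 (Gsto1 and Cbr2). Each library by itself also gave 5. The 56 other peaks found in both libraries became 3 with no flanks, 29 with flanks of 20 kb, 122 with flanks of 100 kb and 89 with the larger peak list, and 62 to 75 with 1 library left out. These settings count over shorter or longer windows, longer lists or 1 library. The 126 shared footprints became 184 to 215 with 1 library left out. The 1 gene of the 5 without a promoter peak that had bases at a false discovery rate of 0.05 became 0 at 0.01 and 0 at 0.001. Mean promoter percentiles were higher in the larger peak list for all 5 genes (83.6 for Cbr2, 91.6 for Gsto1, 61.5 for Hp, 38.9 for Muc5b and 43.6 for Spdef). They were lower among promoter peaks only (55.8, 71.1, 28.1, 10.1 and 13.7), with the same highest 3. Each setting ranks the peaks within another set, so such shifts come with the set and are no result about the genes. The wider list gave 22 to 30 in place of 24. No paired analysis was possible because the libraries form 1 group. Depth is unknown, so a missing peak means not detected in these libraries.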
